A study of Homo sapiens with 4 samples.

Results

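Caveolins and cavins are the structural proteins of caveolae, and 5 of their genes were examined in SCP2 breast cancer cells: CAV1, CAV2, CAVIN1, CAVIN2 and CAVIN3. They are 5 of 19775 genes named on the array, and their symbols match 11 of its 54675 probe sets. All 5 genes passed the brightness filter, which kept a gene whose highest intensity over the 4 arrays reached 0.38, the median of all values, and left 13134 genes. Of the 11 probe sets, 10 passed it. The genes were selected by symbol as a family with these intensities already known, among them the low CAVIN2 value after TGF-beta in vector cells. They were thus chosen in part on the values given below, and every value is a description.

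SCP2 is a bone-colonising subline grown from a single cell of the human breast cancer line MDA-MB-231. The 4 groups were SCP2 cells labelled as overexpressing DLC1 and treated with TGF-beta, the same cells without TGF-beta, vector control cells treated with TGF-beta, and vector control cells without it. DLC1 is known as a tumour suppressor gene, and TGF-beta is a cytokine released from bone matrix. Neither the dose and duration of treatment nor the promoter driving DLC1 is known here. Each group was measured on 1 array, so no value has a replicate error, no p-value is given, and the number of arrays limits the precision throughout.

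Caveolae are flask-shaped pits of the plasma membrane that buffer membrane tension and gather signalling proteins. Caveolins are hairpin proteins inserted in the inner leaflet, and cavins form a coat around them. Caveolin-1 binds the type I TGF-beta receptor, caveolar uptake is one route by which that receptor is removed from the surface, and the START domain of DLC1 has been reported to bind caveolin-1.

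The array medians ran from 0.38 to 0.39. The transcript of DLC1 did not settle the labels. Its probe set 210762_s_at read 3.64 with TGF-beta and 3.38 without it in the DLC1-labelled arrays, and 2.51 and 1.77 in the matching vector arrays. Probe set 224822_at went the other way, at 1.69 and 1.44 in the DLC1-labelled arrays and 2.41 and 1.79 in the vector arrays. The arrays are therefore called DLC1-labelled. The TGF-beta label was borne out by PMEPA1, a feedback inhibitor of the pathway, which read 80.96 in the treated and 6.63 in the untreated DLC1-labelled array, and 89.76 and 8.19 in the vector arrays. All 4 measured TGF-beta targets passed 2-fold upward in both backgrounds. Of the lineage markers, 4 of 4 passed the filter, with summed intensities of 288.54 to 358.55, and VIM, the vimentin gene, read 160.3 to 205.05. Among cell types known for many caveolae, 1 of 4 endothelial markers passed, PECAM1 at 0.67 to 0.85, and their sums ran from 1.19 to 1.42. For adipocytes 0 of 3 passed, with sums of 0.45 to 0.5, and for muscle 1 of 3 passed, DES at 0.43 to 0.51, with sums of 0.68 to 0.72. The endothelial gene CDH5 read 0.09 to 0.11. Of the leukocyte markers, 0 of 2 measured passed, with sums of 0.46 to 0.54.

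The caveolins CAV1 and CAV2 were lowest in the DLC1-labelled array with TGF-beta. CAV1 encodes caveolin-1, without which most cells form no caveolae. Its probe set 203065_s_at read 44.7 in DLC1-labelled cells with TGF-beta, 52.89 in DLC1-labelled cells, 55.32 in vector cells with TGF-beta and 76.9 in vector cells. The other CAV1 probe set, 212097_at, read 43.61, 50.37, 52.73 and 74.83 in the same order. In both probe sets the untreated vector array was the highest and the 2 DLC1-labelled arrays lay below the 2 vector arrays. Across the extremes, CAV1 was 1.72-fold lower in DLC1-labelled cells with TGF-beta than in untreated vector cells. In a culture, less CAV1 RNA in every cell and fewer cells that express it cannot be told apart.

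CAV2 encodes caveolin-2, which forms mixed oligomers with caveolin-1 and depends on it to leave the Golgi. Its probe set 203324_s_at read 24.83 in DLC1-labelled cells with TGF-beta, 26.66 in DLC1-labelled cells, 29.18 in vector cells with TGF-beta and 36.27 in vector cells. Probe set 203323_at read 7.28, 8.04, 12.1 and 15.98. Both kept the order of arrays seen for CAV1, without overlap between DLC1-labelled and vector arrays. The third, 213426_s_at, lay between 0.2 and 0.25, under the filter, and its order was different.

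CAVIN2 encodes cavin-2, also called SDPR, a phosphatidylserine-binding coat protein that bends membrane and has been described as a suppressor of breast cancer metastasis. Its probe set 222717_at read 0.65 in DLC1-labelled cells with TGF-beta, 1.07 in DLC1-labelled cells, 0.96 in vector cells with TGF-beta and 4.15 in vector cells. Probe set 218711_s_at read 0.54, 0.59, 0.54 and 0.95. In each probe set the untreated vector array stood above the other 3 arrays. CAVIN2 was 6.38-fold lower in DLC1-labelled cells with TGF-beta than in untreated vector cells by 222717_at and 1.76-fold lower by 218711_s_at.

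The remaining cavins were nearly level in the probe sets that stand for them. CAVIN1 encodes cavin-1, which caveolae need as much as caveolin-1. Its probe set 208789_at read 18.28 and 19.57 in DLC1-labelled cells with and without TGF-beta, and 19.14 and 18.92 in vector cells with and without it. Its sets 1557938_s_at and 208790_s_at ran from 4.2 to 4.87 and from 1.38 to 1.71. CAVIN3, which encodes cavin-3, a coat protein that binds protein kinase C delta, read 14.24 and 14.28 in DLC1-labelled cells with and without TGF-beta, and 14.2 and 13.56 in vector cells with and without it. Between its lowest and highest array, CAVIN3 spanned 0.07 on the log2 scale and CAVIN1 spanned 0.10, against 0.78 for CAV1, 0.55 for CAV2 and 2.67 for CAVIN2.

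**Figure D1:**
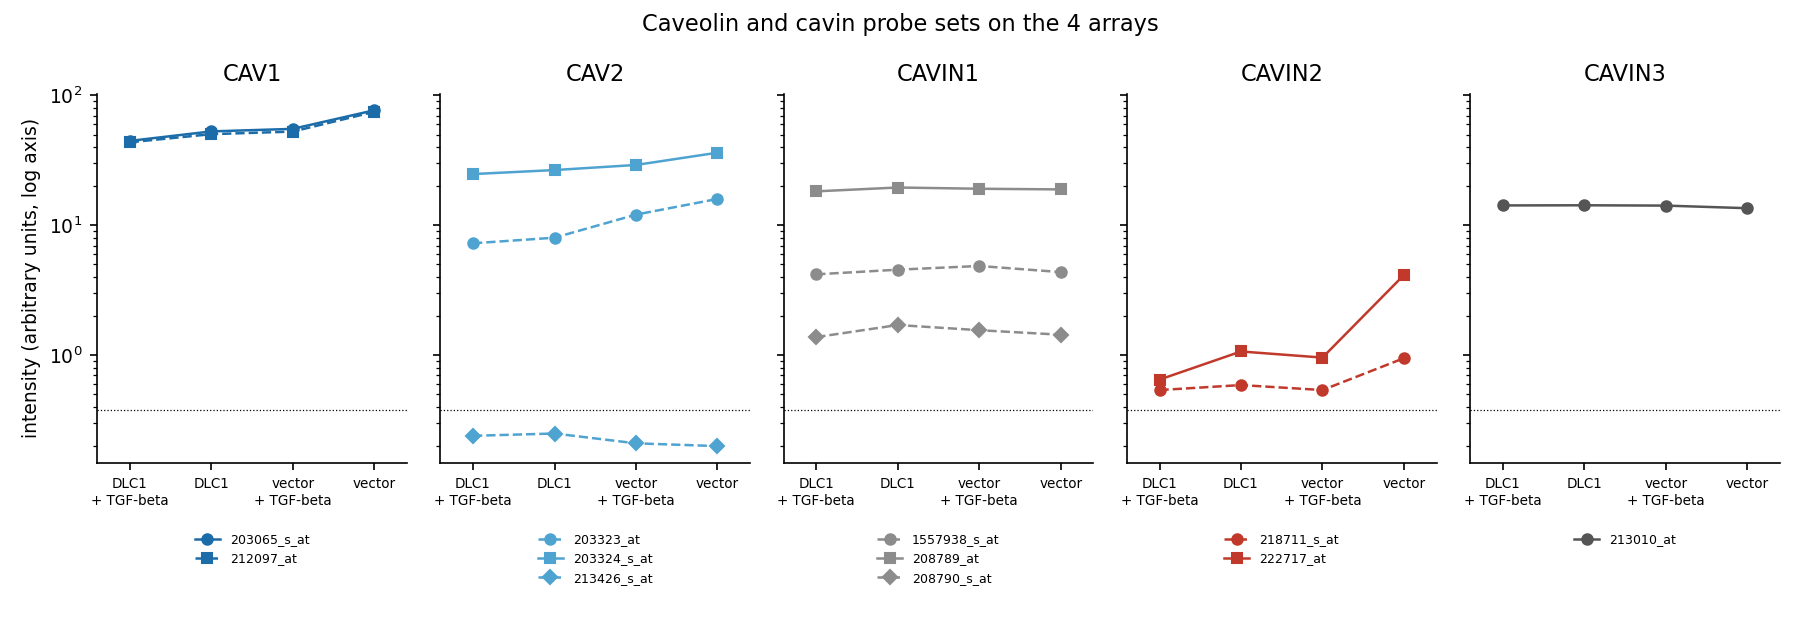
Intensity in arbitrary units (log axis) of the 11 probe sets on the 4 arrays, 1 point per array. The solid line is the probe set that stands for the gene and the dotted line is the filter at 0.38. CAV1, CAV2 and CAVIN2 peak in the untreated vector array, CAVIN2 at 4.15 against 0.65 to 1.07 elsewhere, while the CAVIN1 set that stands for the gene runs from 18.28 to 19.57 and CAVIN3 from 13.56 to 14.28.

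The promoters of CAV1 and CAV2, which shared an order of arrays and lie side by side, are shown with that of CAVIN2, the member that passed 2-fold. In the RefSeq annotation of GRCh38.p14, CAV2 and CAV1 are on chromosome 7 with 0 protein-coding genes between them, CAVIN2 is on chromosome 2, CAVIN3 on chromosome 11 and CAVIN1 on chromosome 17. RefSeq windows of 300 bases, 250 before and 50 after a gene start, were found for 3 of the 5 members, and for CAV1 and CAV2 the window of the most upstream start is given. They are CAV1 (chr7:116524759-116525058, plus strand), CAV2 (chr7:116499488-116499787, plus strand) and CAVIN2 (chr2:191847039-191847338, minus strand), all in GRCh38.p14. Capitals mark matches on either strand to the SMAD element CAGAC, the TEAD element GGAATG and the GC box GGGCGG, and none of these matches overlap.
CAV1: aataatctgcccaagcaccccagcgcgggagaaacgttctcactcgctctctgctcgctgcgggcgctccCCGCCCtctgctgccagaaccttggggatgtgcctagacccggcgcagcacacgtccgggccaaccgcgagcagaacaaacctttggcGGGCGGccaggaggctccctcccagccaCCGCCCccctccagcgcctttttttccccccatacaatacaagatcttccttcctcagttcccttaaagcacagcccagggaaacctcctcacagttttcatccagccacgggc
CAV2: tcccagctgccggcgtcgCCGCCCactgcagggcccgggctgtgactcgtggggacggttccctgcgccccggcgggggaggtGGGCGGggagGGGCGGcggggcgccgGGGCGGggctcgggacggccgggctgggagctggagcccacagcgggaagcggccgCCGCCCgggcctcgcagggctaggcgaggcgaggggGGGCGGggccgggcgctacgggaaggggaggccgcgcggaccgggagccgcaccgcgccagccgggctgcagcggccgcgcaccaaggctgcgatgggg
CAVIN2: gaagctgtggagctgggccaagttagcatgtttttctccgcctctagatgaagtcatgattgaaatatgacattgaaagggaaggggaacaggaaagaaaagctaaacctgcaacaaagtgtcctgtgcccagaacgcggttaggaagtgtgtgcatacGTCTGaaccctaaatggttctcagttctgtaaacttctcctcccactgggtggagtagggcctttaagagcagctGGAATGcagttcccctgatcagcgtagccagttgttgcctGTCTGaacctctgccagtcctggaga

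The CAV1 window shown held 3 GC boxes and the CAV2 window shown 6, and neither held a SMAD or TEAD element. Of the windows at later starts, which are not shown, 1 of CAV1 and 1 of CAV2 each held 1 SMAD element. The CAVIN2 window held 2 SMAD elements, starting at positions -91 and 25 relative to the gene start, 1 TEAD element starting at -16, and 0 GC boxes. The AP-1 element TGANTCA and the CArG box were also searched on both strands and gave 0 matches in all 3 windows. Among 35116 promoter windows of the same length, 45.3% held the SMAD element, 14% the TEAD element, 45% the GC box, 7.71% the AP-1 element and 1.29% the CArG box. GC content was 62.3% for CAV1, 82.7% for CAV2 and 49.3% for CAVIN2, against a median of 58.7% over all windows. A match to these short letters is common and shows no binding.

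The comparison of treated with untreated vector cells asks what differs with TGF-beta in cells without the DLC1 label. CAVIN2 fell by 2.11 on the log2 scale, 4.32-fold, in 222717_at, the probe set with the highest mean, which stands for the gene. A gene was called when it differed by at least 2-fold, and 1.2% of kept genes were called higher and 0.685% lower here. CAVIN2 was 1 member of 5 past 2-fold and ranked 3 from the lowest of 13134 genes. Its other probe set gave -0.81, so the call rests on 1 probe set. CAV1 gave -0.48, at the 4.86th percentile of kept genes, and CAV2 gave -0.31. CAVIN1 gave 0.02 and CAVIN3 0.07. The middle 95% of kept genes ran from -0.62 to 0.67.

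In DLC1-labelled cells the same cytokine left every member within 2-fold, where 0.777% of kept genes were called higher and 0.107% lower. CAVIN2 gave -0.72, rank 62 from the lowest, and its other probe set -0.13. At 1.5-fold, where 2.3% of kept genes were called higher and 1.04% lower, CAVIN2 was 1 member past the threshold. CAV1 gave -0.24 and CAV2 -0.10, both smaller in size than in vector cells, and CAVIN1 gave -0.10. CAVIN3 gave -0.004. The middle 95% of kept genes ran from -0.44 to 0.55, which leaves CAVIN2 in 222717_at outside it and the other members inside.

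The comparison of DLC1-labelled with vector cells asks what differs with the DLC1 label, which the DLC1 transcript did not settle. Without TGF-beta CAVIN2 fell by 1.96 on the log2 scale, 3.88-fold, and ranked 20 from the lowest. It was again 1 member of 5 past 2-fold, where 1.61% of kept genes were called higher and 2.31% lower, and its other probe set gave -0.69. CAV1 gave -0.54 and -0.57 in its 2 probe sets. CAV2 gave -0.44 in the probe set that stands for it and -0.99 in 203323_at, a gap of 0.55, so the size of its difference is not settled. CAVIN1 gave 0.05 and CAVIN3 0.07. The middle range of kept genes, taken as for the TGF-beta differences, was wider here, from -0.97 to 0.84. CAVIN2 in 222717_at lay outside it, and CAV2 in 203323_at barely so. The probe sets that stand for the other members lay inside it. CAV1 was at the 10.05th percentile of kept genes and CAV2 at the 13.55th.

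With TGF-beta on both sides, 0 of 5 members passed 2-fold while 1.45% of kept genes were called higher and 1.61% lower. CAVIN2 gave -0.56 in 222717_at and 0.00 in 218711_s_at. CAV1 gave -0.31 and CAV2 -0.23, with -0.73 in 203323_at. CAVIN1 gave -0.07 and CAVIN3 0.00. The same middle range of kept genes ran from -0.83 to 0.82 here, and every member lay inside it. CAVIN2 in 222717_at was at the 7.23rd percentile of kept genes, CAV1 at the 18.81st and CAV2 at the 24.44th. Both DLC1-labelled arrays lay below both vector arrays for CAV1 and CAV2, as they did for 33.1% of kept genes, and above them for CAVIN3, as for 28.7%. For CAVIN2 both TGF-beta arrays lay below both untreated arrays, which held for 14.4% of kept genes. For 0 members both lay above them, which held for 11.8%. The untreated vector array was the highest and the DLC1-labelled array with TGF-beta the lowest for 3 of 5 members, CAV1, CAV2 and CAVIN2, and for 17.4% of kept genes. Of 11 measured housekeeping genes, TFRC and HPRT1 shared this order and the rest did not. TFRC read 92.14 in untreated vector cells and 62.15 in DLC1-labelled cells with TGF-beta, and HPRT1 read 39.72 and 27.71.

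**Figure D2:**
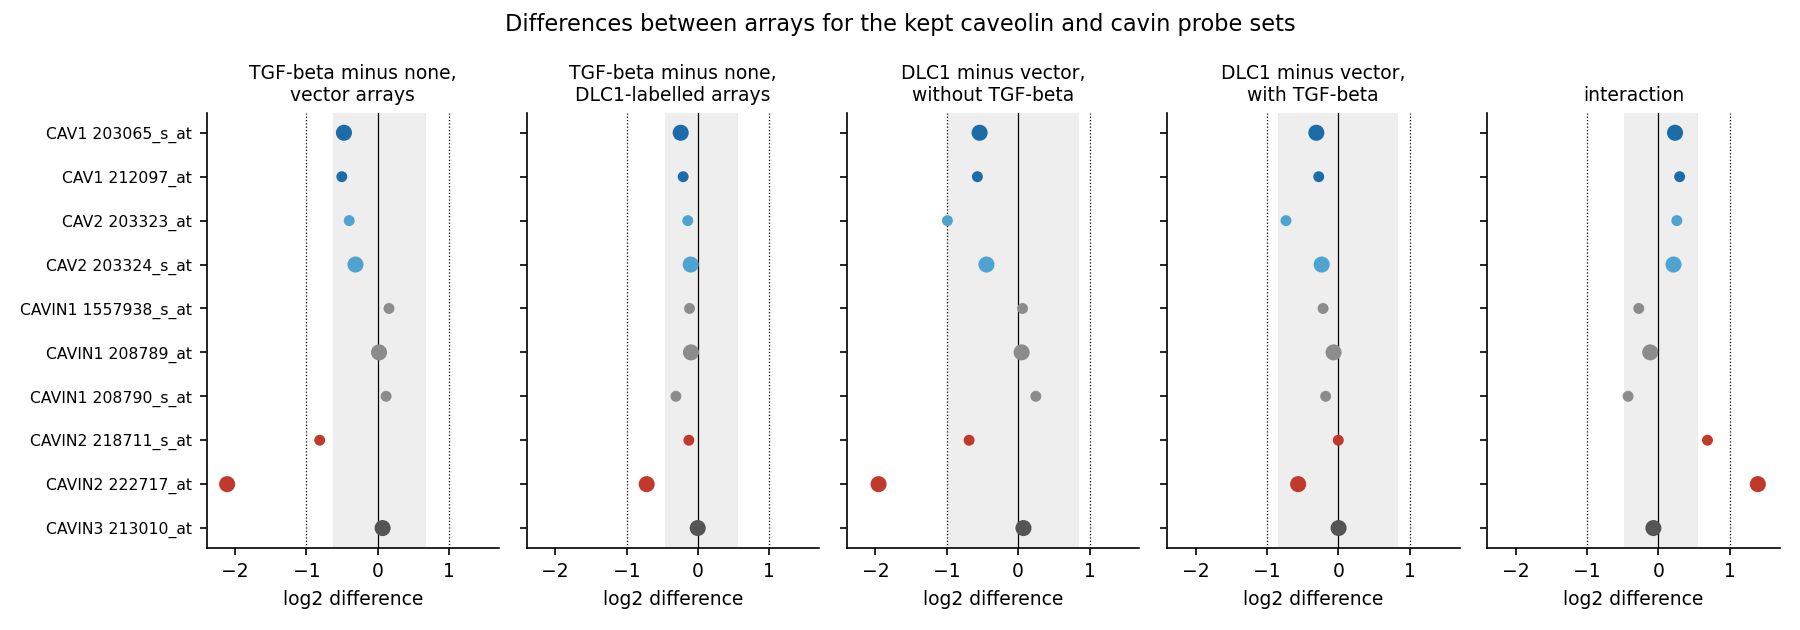
Log2 differences of the 10 kept probe sets in the 4 single comparisons and their interaction, with 1 point per probe set and the larger point for the one that stands for the gene. The grey band holds the middle 95% of kept genes and the dotted lines mark 2-fold. CAVIN2 in 222717_at lies at -2.11 and -1.96 in the comparisons with the untreated vector array, CAVIN3 runs from -0.07 to 0.07 over the panels, and the dimmer CAVIN1 sets reach -0.31 for TGF-beta in DLC1-labelled arrays and -0.42 in the interaction.

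The probe sets of a gene give a measure of error, but only a technical one. Over 6388 genes with at least 2 kept probe sets, the 2 brightest differed by a median of 0.13 in the TGF-beta difference of vector arrays and of 0.19 in the DLC1 difference without TGF-beta. The CAV1 sets parted by only 0.03 in each of these. For CAV2 the gaps were 0.09 and 0.55, and for CAVIN2 1.30 and 1.27, beyond the 90th percentiles of 0.37 and 0.58. The CAV1 differences of -0.48 and -0.54 are thus many times the gap between its own probe sets. That gap cannot hold an error shared by a whole array, and both differences use the untreated vector array. The spread between cultures was not measured.

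The interaction is the TGF-beta difference in DLC1-labelled arrays minus that in vector arrays. For CAVIN2 it was 1.39, rank 5 from the highest of 13134 genes, in a comparison where 0.19% of kept genes passed 2-fold upward and 0.175% downward. Its other probe set gave 0.69. CAV1 gave 0.23 and CAV2 0.21, so for each of these 3 genes the log2 difference between the DLC1-labelled array with TGF-beta and the untreated vector array was smaller in size than the sum of the separate ones. CAVIN1 gave -0.12, with -0.27 and -0.42 in its dimmer sets 1557938_s_at and 208790_s_at, and CAVIN3 gave -0.07. The middle 95% of kept genes ran from -0.47 to 0.53.

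The CAVIN2 differences of -2.11 and -1.96 and its interaction all use the untreated vector array, so they are not independent of each other. Between the 3 other arrays 222717_at spanned 0.65 to 1.07. The lowest of these, 0.65, is not far above the filter at 0.38, and the lower quartile of each array was 0.14. On the same arrays the 3' minus 5' gap of the beta-actin control probe sets, a sign of RNA quality, was 3.03 and 3.11 in DLC1-labelled cells with and without TGF-beta and 2.83 and 3.26 in vector cells with and without it. That gap too was highest in the untreated vector array, and its part in the result was not tested. The gap of GAPDH stayed between 0.35 and 0.39.

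**Figure D3:**
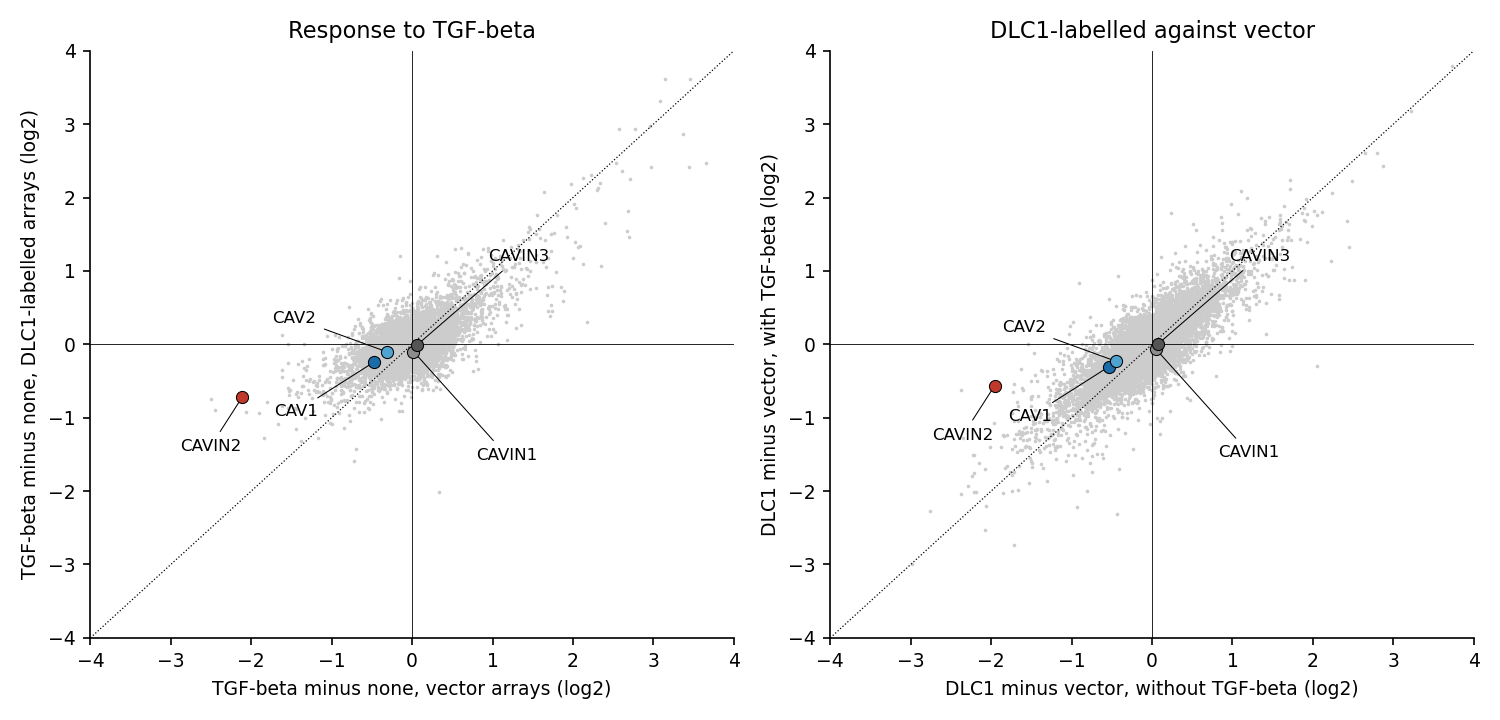
Log2 differences of the 13134 kept genes (grey points) with the members named, plotting the response to TGF-beta in DLC1-labelled against vector arrays on the left, and the DLC1 difference with against without TGF-beta on the right. The axes of a panel share no array. On the horizontal axis CAVIN2 ranks 3 from the lowest in the left panel, where it lies at -2.11 and -0.72. In the right panel it ranks 20 from the lowest on that axis, at -1.96 and -0.56.

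The members were also compared with each other by their pattern over the 4 arrays. Likeness was measured as the root mean square difference between log2 values centred on each gene's own mean. CAV1 and CAV2 differed by 0.09. CAV2 was 145th of 13133 genes in likeness to CAV1, and CAV1 was 594th in likeness to CAV2. CAVIN1 and CAVIN3 differed by 0.04, with CAVIN3 630th in likeness to CAVIN1 and CAVIN1 655th in likeness to CAVIN3. CAVIN2 was 0.73 from CAV1 and 0.81 from CAV2, and CAV1 was 424th in likeness to CAVIN2, while CAVIN2 was 12798th in likeness to CAV1. With 4 arrays such ranks describe these arrays only.

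The 5 kept genes most like CAVIN2 were PTX3, FLG, PAG1, LY6K and ITGB8, at root mean square differences of 0.22 to 0.33. PTX3 encodes pentraxin 3, a soluble molecule of innate immunity. It read 11 and 26.7 in DLC1-labelled cells with and without TGF-beta, and 20.41 and 73.28 in vector cells with and without it. PAG1 encodes a raft-resident adaptor that recruits the kinase CSK to the membrane, and it read 1.71 and 3.14 in DLC1-labelled cells with and without TGF-beta, against 2.77 and 7.56 in the vector cells. LY6K encodes a lipid-anchored surface protein and read 0.72 and 1.32 in DLC1-labelled cells, against 1.1 and 3.03 in the vector cells. ITGB8, an integrin chain that activates latent TGF-beta, read 2.0 and 2.45 in DLC1-labelled cells, against 3.03 and 7.53 in the vector cells. FLG, the filaggrin gene, passed the filter only through the untreated vector array, at 0.64, and read 0.15 to 0.23 on the others. These genes were selected on the pattern of CAVIN2, so their likeness to it is no separate result.

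**Figure D4:**
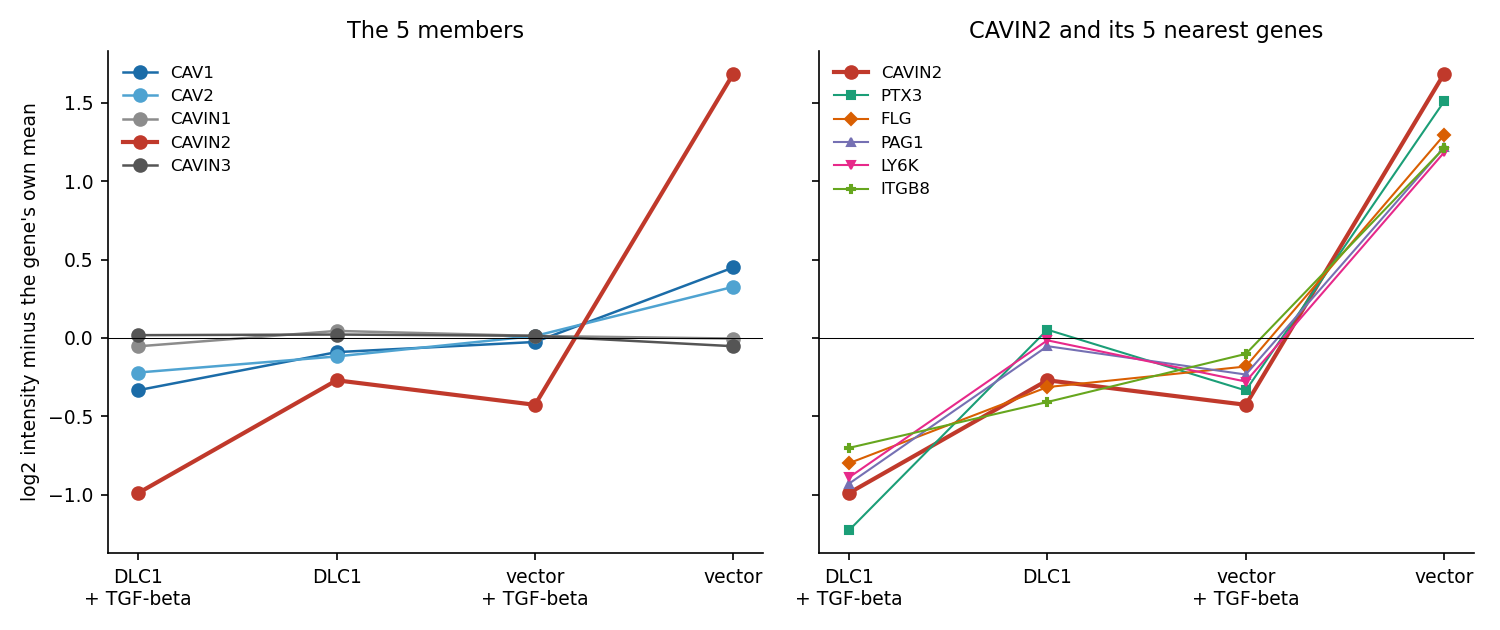
Log2 intensity minus the gene's own mean over the 4 arrays, for the 5 members on the left and for CAVIN2 with its 5 nearest genes on the right, 1 point per array. In the untreated vector array CAVIN2 stands at 1.69, CAV1 at 0.45 and CAV2 at 0.33, while CAVIN1 and CAVIN3 stay between -0.05 and 0.04 on all arrays.

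The proteins that shape the caveola neck and its membrane were compared next. Of 8 measured genes 7 were kept, and 0 passed 2-fold in any single comparison. Their median TGF-beta differences were 0.10 in DLC1-labelled and -0.01 in vector cells, against -0.01 and -0.03 over all kept genes. In DLC1-labelled against vector cells the medians were -0.20 with and -0.45 without TGF-beta, against -0.02 and -0.03 over all kept genes. The biggest differences were those of the EH-domain ATPase genes EHD1 and EHD3. For DLC1-labelled against vector cells, EHD1 gave -0.54 with and -0.62 without TGF-beta in 209039_x_at, but 0.30 and 0.51 in 209037_s_at. Its other sets gave -0.46 and -0.47 in 208112_x_at, -0.50 and -0.38 in 222221_x_at, and -0.10 and -0.13 in 209038_s_at. EHD3 gave -0.06 and -0.55 in 218935_at, but -0.05 and -0.06 in 230740_at, so the second value rests on 1 probe set. EHD2, the ATPase that sits at the caveola neck, was singled out for that role after its values were seen. It read 4.17 and 4.62 in DLC1-labelled cells with and without TGF-beta, against 3.16 and 3.48 in the vector cells, differences of 0.40 and 0.41. Probe set 45297_at of EHD2 gave 0.22 and 0.38, and 205341_at gave 0.13 and -0.43.

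The muscle forms of the families stayed close to the filter. CAV3, the muscle caveolin, read 0.39 and 0.41 in DLC1-labelled cells with and without TGF-beta, and 0.36 and 0.43 in vector cells with and without it. CAVIN4, the muscle cavin, read 0.7 and 0.61 in DLC1-labelled cells and 0.5 and 0.48 in vector cells. None of their 4 single differences reached 2-fold.

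Receptors and kinases known to bind caveolin-1 were measured alongside. Of 11 measured genes 9 were kept. Their median TGF-beta differences were 0.20 in DLC1-labelled and 0.20 in vector cells, against -0.01 and -0.03 over all kept genes. For DLC1-labelled against vector cells the medians were -0.01 with and -0.06 without TGF-beta. KDR, a VEGF receptor gene, was the single one past 2-fold in the probe set that stands for the gene. It was lower by 1.03 on the log2 scale in DLC1-labelled than in vector cells with TGF-beta, where 1.45% of kept genes were called higher and 1.61% lower. It read 0.47 and 0.46 in DLC1-labelled cells with and without TGF-beta, against 0.96 and 0.74 in the vector cells, near the filter, so the size of that difference is uncertain. For DLC1-labelled against vector cells without TGF-beta, EGFR, a growth factor receptor gene, gave -0.23 in 224999_at, which stands for it. Among its dimmer sets, 210984_x_at gave 1.04 and 211607_x_at 0.92, but 201983_s_at gave -0.16 and 201984_s_at -0.83.

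Clathrin coats and flotillins came last. Of 16 measured clathrin coat and adaptor genes all were kept and 0 passed 2-fold in any single comparison, with median TGF-beta differences of 0.04 in DLC1-labelled and 0.09 in vector cells. For DLC1-labelled against vector cells the medians were -0.07 with and 0.01 without TGF-beta. The adaptor subunit gene AP2A2 gave -0.68 and -0.66 there, with -0.65 and -0.61 in 211779_x_at. It gave less in its dimmer sets, -0.26 and -0.37 in 215764_x_at and -0.33 and -0.17 in 212161_at. DAB2, which encodes a clathrin adaptor, gave 0.65 and 0.23. In its next brightest probe sets, 201280_s_at, 210757_x_at and 201279_s_at, the difference with TGF-beta was 0.79, 0.72 and 0.65. The dim DAB2 sets 232898_at and 240873_x_at gave 0.97 and 1.24, and 1559370_at, under the filter, gave -0.19. Flotillins form membrane domains apart from caveolae. FLOT1, the flotillin-1 gene, read 8.47 and 8.74 in DLC1-labelled cells with and without TGF-beta, against 5.33 and 5.42 in the vector cells. These are differences of 0.67 and 0.69. Its set 210142_x_at gave 0.92 and 0.83, but the dim set 208748_s_at gave 0.23 and 0.20. Under the filter, 213819_s_at gave -0.15 and -0.22. STOM, the stomatin gene, had TGF-beta differences of -0.45 in DLC1-labelled and -0.52 in vector cells. Its set 201060_x_at gave -0.24 and -0.68, and 201062_at, under the filter, gave -0.51 and 0.00. Of the 3 flotillin and stomatin genes 0 passed 2-fold, and their median TGF-beta differences were -0.24 in DLC1-labelled and -0.02 in vector cells. For DLC1-labelled against vector cells their medians were -0.13 with and 0.11 without TGF-beta.

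**Figure D5:**
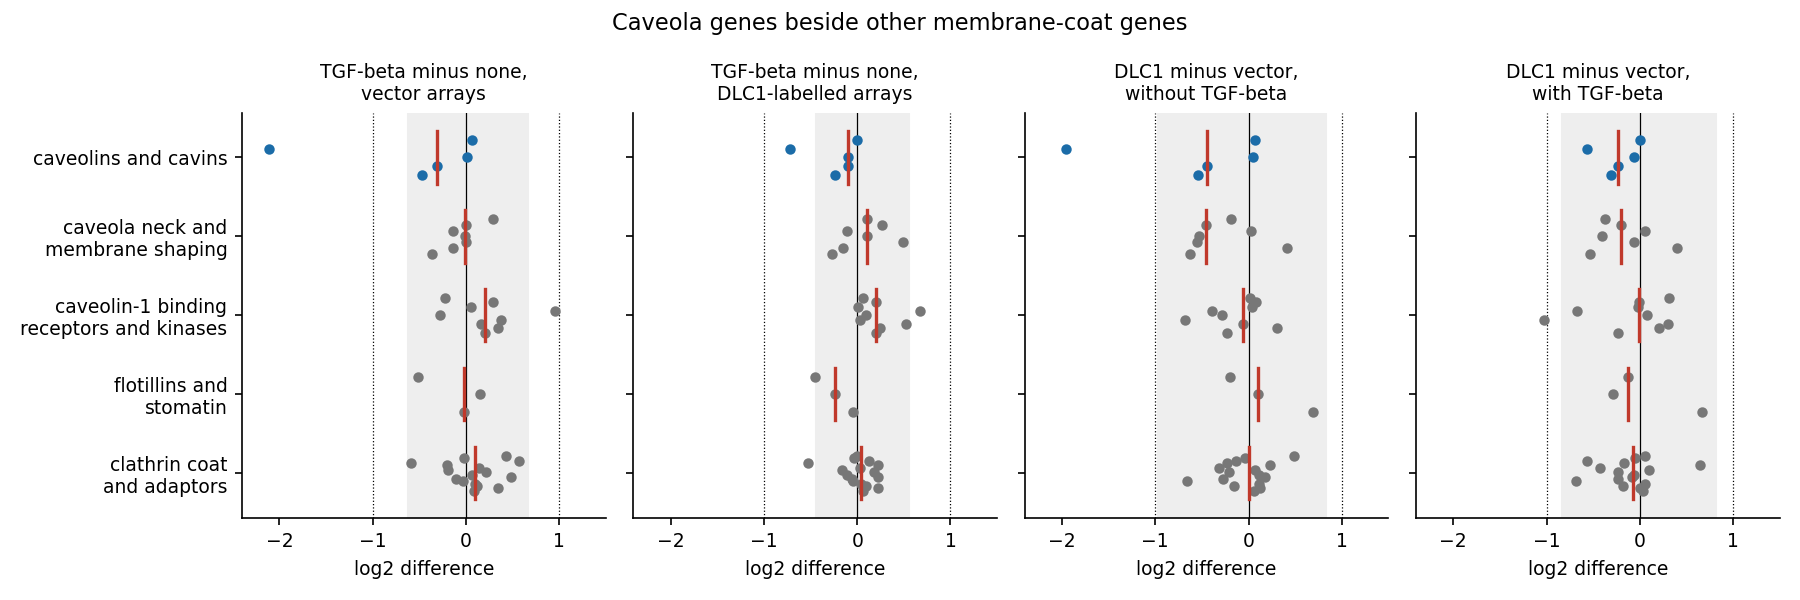
Log2 differences of the kept genes of 5 lists in the 4 single comparisons, 1 point per gene, with a red bar at each list's median. The grey band holds the middle 95% of kept genes and the dotted lines mark 2-fold. CAVIN2 at -2.11 and -1.96 is the point past 2-fold among the members, and KDR at -1.03 the one in the other lists.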

How the data were processed

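Each of 4 groups of SCP2 cells, taken from the labels, has 1 expression array. The values the authors deposited are intensities on a linear scale in arbitrary units, from 0.05 to 265.58. The submitters' processing notes name RMA with no version. Its output is normally log2, yet values up to this size are linear, so log2 was taken here, and how the scale was set is not given in the sources used. Gene symbols came from the platform's probe table: 41097 carry 1 symbol, 1801 carry several and were not used, and 11777 are unnamed here. The 5 members matched 11 probe sets by exact symbol. A gene was its probe set with the highest mean log2 value, and was kept if its highest intensity reached 0.38. The 4 single differences and their interaction were called at 2-fold. Every probe set of a member was examined as well.

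Members, gene lists and rules were chosen with earlier results of these data known. The genes named were the members, DLC1, list genes past 2-fold (otherwise the 2 with the biggest differences), the cell markers, TGF-beta targets and the 5 genes nearest to each member past 2-fold. EHD2, EGFR, TFRC and HPRT1 were added after their values were seen. A few listed genes were not analysed here. The 11 alternatives varied scaling, pseudocount, probe set, filter and fold. Python 3.11.15 with pandas 2.3.3 and numpy 2.4.6 gave the differences. For cyclic loess, R 4.3.3 ran limma 3.58.1. The difference and call steps were run on simulated data with independent noise on each array and large planted changes. That checks the arithmetic only, since no error shared by an array was simulated. Promoter sequences are those of RefSeq on GRCh38.p14.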

Additional observations from a re-analysis of the deposited data

Results flagged for a closer look

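CAVIN1 and CAVIN3 were picked out because their differences had opposite signs in the groups compared. For CAVIN1 the TGF-beta difference was -0.10 in DLC1-labelled and 0.02 in vector arrays, and the DLC1 difference was -0.07 with and 0.05 without TGF-beta. Both gaps are -0.12 because each is the interaction by definition, so they are a single result. For CAVIN3 the TGF-beta difference was -0.004 in DLC1-labelled arrays and 0.07 in vector arrays, which is -0.0706 apart. None of these differences was tested, since each rests on 1 array per group, and the median gap between 2 probe sets of a gene in the interaction was 0.16. The other CAVIN1 sets, 1557938_s_at and 208790_s_at, gave -0.27 and -0.42 for the same contrast.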

How the results depend on the processing

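Of 255 recomputed differences of single members, 252 kept their side of 2-fold and none of those past 2-fold changed sign. That count is a weak measure of robustness. It includes changes of filter, which leave a member's difference as it was, and mostly differences that started within 2-fold. The 3 that did not keep their side were those of CAVIN2 in 218711_s_at, at -0.81, -0.69 and 0.69. Counting a member only when every kept probe set passed 2-fold therefore left 0 members in place of 1 for TGF-beta in vector arrays, for DLC1 without TGF-beta and for the interaction. With 1.5-fold in place of 2-fold, 1 member, CAVIN2, was counted for TGF-beta in DLC1-labelled arrays in place of 0, where 1.04% of kept genes were called lower. Apart from these, the counts kept their values under the alternatives run. Over scalings, pseudocounts and probe-set averaging, CAVIN2 ran from -2.21 to -1.46 with TGF-beta in vector arrays and from -1.98 to -1.32 for DLC1 without TGF-beta. Its interaction ran from 1.04, with probe sets averaged, to 1.41.

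Centring on housekeeping genes moved the median of all kept genes from -0.01 to -0.19 for TGF-beta in DLC1-labelled arrays. It changed the split of genes called higher and lower to 124 and 123, against 157 and 90 as deposited, for TGF-beta in vector arrays. For TGF-beta in DLC1-labelled arrays the split was 63 and 35 against 102 and 14, and for DLC1 without TGF-beta 267 and 241 against 211 and 303. In the interaction it was 16 and 27 against 25 and 23. The signs of CAVIN1 and CAVIN3 with TGF-beta in vector arrays turned, to -0.08 and -0.03, and CAVIN3 in DLC1-labelled arrays, at -0.004, turned under median centring and quantile normalization. The dim CAV2 set 213426_s_at, under the filter, ran opposite to the others in 4 of the 5 differences. Signal near the filter limits CAVIN2. No paired analysis was possible because each group holds 1 array.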
